A study of Mus musculus with 3 samples.

Results

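The genes described here are 147 sense-intronic non-coding RNAs with reads in the chromatin-fraction RNA of mouse macrophages. They were selected on the measured TPM of these libraries, as the genes that have a transcript of the GENCODE M21 type sense_intronic and a TPM of 1 or more in the gene tables of all 3 libraries. TPM is a relative abundance from read counts that is normalised for transcript length and for the total of a library. The annotation holds 334 genes with such a transcript among 55536 annotated genes, so the rule kept 44.0% of them, and 24.4% of all annotated genes reached the same TPM. These values chose the genes, so they are a description and were not tested. The 3 libraries form 1 group. The cells were macrophages grown from the bone marrow of the mouse strain C57BL/6J, exposed for 10 min to Lipid A at 100 ng/ml. Lipid A is the TLR4-activating core of lipopolysaccharide from bacteria. The labels name no other allele or agent, give age and sex as not collected, and describe total RNA of the chromatin fraction after ribosomal RNA depletion. Biological replicates 1, 2 and 3 started from 1 µg, 250 ng and 500 ng of RNA and share 1 donor entry, so the spread between them may be partly technical, and amount and replicate cannot be told apart. No unstimulated library is used here, so no value below is a response to Lipid A.

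A sense-intronic RNA lies inside an intron of another gene, called its host, on the same strand and without using the exons of the host. Chromatin-fraction RNA holds transcripts that are still being made, so it is rich in introns that have not yet been spliced out. A read from a sense-intronic RNA has the same sequence and strand as a read from the intron around it. With these tables the RNA itself and the unspliced precursor of its host cannot be told apart, and a level given below is the level that the tables assign to the annotated RNA.

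Replicates 1, 2 and 3 assigned 15698066, 16005795 and 14386725 estimated counts to annotated genes. The members took 19962, 28124 and 21474 of these counts, which were 0.127%, 0.176% and 0.149%. A listed 0 is compatible with as many as 3 counts, or 0.187 to 0.209 CPM (counts scaled to library size), for counting error only. All 8 macrophage markers checked were at 1 TPM or more in every library, with a summed TPM of 995 to 1849. Of the markers of T cells, B cells, neutrophils, fibroblasts, erythroid cells and mast cells, none reached 1 TPM in all 3 libraries. The summed TPM of each of these 6 lists was 1.47 or less in every library, and Cd3e, Elane, Hba-a1 and Mcpt4 were listed at 0. In such bulk RNA, fewer cells that make an RNA and less RNA per cell cannot be told apart.

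Sequences of 5 members that end in a poly(A) signal are shown first, because the annotated 3′ end is where an independent RNA and a piece of an intron could differ. The last 60 bases of each GENCODE M21 transcript are written 5′ to 3′. Capitals mark the last match to the signal AATAAA or its common variant ATTAAA, and earlier matches in Peg13 and Gm43138 are not marked. The genes lie, in mm10, at chr14:25459980-25462387 (plus strand) for Gm47920, chr13:59781062-59781578 (minus) for Gm48194, chr6:137431305-137431605 (plus) for Gm44258, chr15:72805600-72810324 (minus) for Peg13 and chr5:110206580-110207287 (plus) for Gm43138.
Gm47920: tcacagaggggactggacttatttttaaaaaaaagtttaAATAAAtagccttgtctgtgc
Gm48194: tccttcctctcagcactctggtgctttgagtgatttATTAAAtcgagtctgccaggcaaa
Gm44258: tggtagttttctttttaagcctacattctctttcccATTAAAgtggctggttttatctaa
Peg13: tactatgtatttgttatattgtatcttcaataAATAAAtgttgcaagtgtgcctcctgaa
Gm43138: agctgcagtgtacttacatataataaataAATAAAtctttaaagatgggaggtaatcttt

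Most members did not end this way. AATAAA, searched on the strand of the transcript in its last 50 bases, was found in 32 of the 147 members (21.8%) and in 41 of the 187 other sense-intronic genes (21.9%), counting the longest transcript of each. The share over all M21 transcripts was 40.6% for protein-coding, 30.6% for lincRNA (RNAs from between genes) and 17.3% for retained_intron transcripts. With ATTAAA allowed as well, 38 members (25.9%) had a signal. At least 12 A among the last 20 bases were found in 19 members (12.9%), in 9.63% of the other sense-intronic genes and in 6.88% of lincRNA transcripts. Gm3513 and Gm29488, which follow Gm12238 and stand at ranks 2 and 4 by mean TPM, had neither signal. Their ends are printed for comparison, in lower case throughout. Gm3513 lies at chr3:79551314-79552193 (minus) and Gm29488 at chr1:131406812-131409213 (minus).
Gm3513: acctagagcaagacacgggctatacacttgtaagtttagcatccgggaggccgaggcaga
Gm29488: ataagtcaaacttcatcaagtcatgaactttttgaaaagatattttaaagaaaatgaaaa
A match is a description of these letters and not evidence of a processed end.

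Most members had no spliced transcript. Nearly all lay inside a single intron of their host, which the definition of the type already implies. The longest sense_intronic transcript of a member had a median length of 1434 bases (124 to 6071) and a median GC content of 42.6%. The other sense-intronic genes were shorter, with a median of 795 bases. A spliced transcript was annotated for 63 members, and 84 had none. Of the 187 other sense-intronic genes, 123 had one. Every member had a host, which was protein coding for 145 of them. Gm26930 lay in Gm4258 and Gm42868 in Gm12474, both of them non-coding. The whole gene lay in 1 intron of the host transcript with the most exons for 143 members, of which 50 were in intron 1 and 12 in the last intron. The median length of these introns was 16915 bases, against 47000.5 bases for the introns around other sense-intronic genes. Gm28229, Gm15708, Gm20705 and Gm47357 were not contained in a single intron of that transcript. Of the 187 other sense-intronic genes, 185 had a host and 178 (95.2%) lay in 1 intron, against 97.3% of members. Intron 1 held 36.9% of them and 34.0% of members, and the last intron 10.7% and 8.16%. These positions are therefore not particular to the members. The 147 members shared 123 hosts, and 13 hosts held 37 members, so members of 1 host share a transcription unit. Chromosome 3 carried 34 members (23.1%) and 66 of the 334 annotated genes (19.8%), and chromosome 5 carried 22 of its 42.

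Levels were low. The median TPM of the members was 4.77, 5.34 and 4.05 in replicates 1, 2 and 3, or 4.72 ± 0.65 (SD, n = 3). Over all 13547 genes at 1 TPM or more the medians were 10.5, 9.31 and 7.55. A mean TPM of 10 or more was reached by 25 members, and 81 had a mean under 5. All 3 libraries gave at least 10 counts to 129 members, and the other 18 rest on fewer counts in some library. For 135 members (91.8%) the deposited standard deviation that read assignment adds to the count was 0 in every library. It was also 0 for 181 of the 187 other sense-intronic genes (96.8%), of which 100 had 0 counts in every library. The value covers assignment among annotated transcripts, and not reads from the host's introns.

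**Figure D1:**
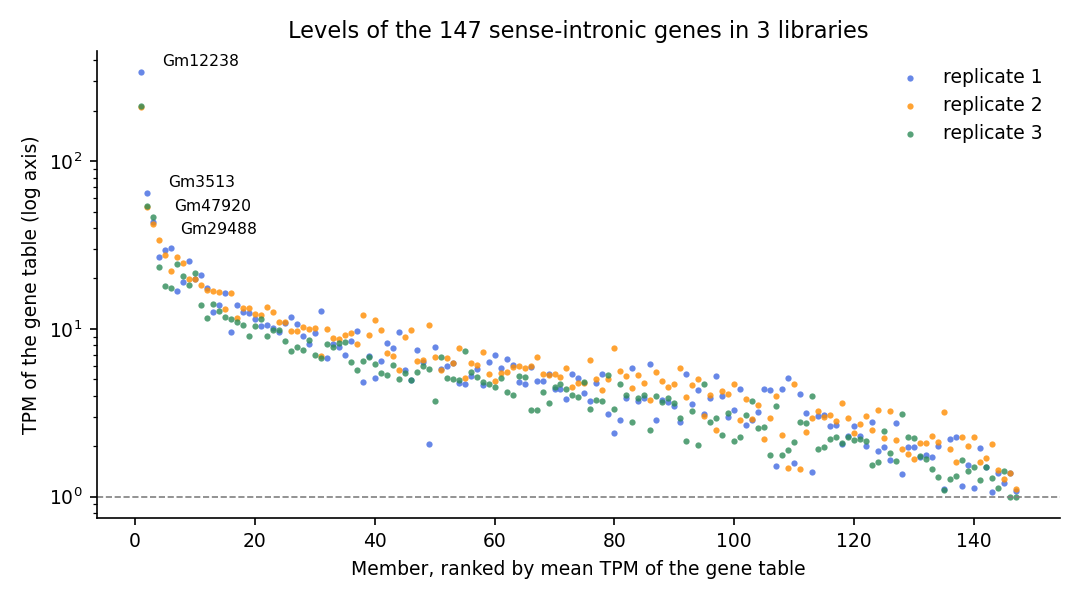
TPM of the gene table (log axis) for the 147 members, ranked by mean TPM on the horizontal axis, with 1 point per library in 3 colours and a dashed line at the rule's threshold of 1 TPM. Gm12238 stands apart at 211 to 341 TPM, Gm3513 follows at 53.2 to 64.9, and 122 members have a mean under 10.

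The highest TPM of all belonged to a member with almost no reads. Gm12238 lies in intron 1 of G3bp1, which encodes a core protein of stress granules, and had TPM values of 341, 211 and 215 in replicates 1, 2 and 3. These values came from only 5.75, 3.80 and 5.64 estimated counts. The transcript is 124 bases long, and the effective length that the gene table divides by was 1.01 to 1.53 bases. The same bases are positions 13 to 136 of Gm22884, a snoRNA (a small nucleolar RNA, a class that guides modification of other RNAs) of 140 bases on the same strand, which had TPM values of 23.0, 21.8 and 18.4 in the gene table. In the second transcript table Gm12238 was listed at 0 in all 3 libraries, and Gm22884 had 48, 43 and 54 counts. Gm12238 was the lone member that the second table did not place at 1 TPM or more, so its rank is uncertain. Its whole transcript, at chr11:55482706-55482829 (plus), is printed because every 31-base word of it also occurs in another gene.
Gm12238: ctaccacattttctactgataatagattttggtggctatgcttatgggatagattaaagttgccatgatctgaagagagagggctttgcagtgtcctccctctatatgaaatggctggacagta

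Below it stood members with many more counts. Gm3513, in intron 1 of Fnip2 (a folliculin-interacting protein of nutrient signalling), had TPM values of 64.9, 53.2 and 54.1 and 397, 379 and 382 counts. Its values in the libraries lay close together, with a mean of 57.4 ± 6.5 (SD, n = 3). Gm47920, in intron 1 of Zmiz1 (a co-regulator of transcription), had TPM values of 43.4, 42.3 and 46.4. Exons of Zmiz1os1 overlap it on the opposite strand, and no source used here says if reads were counted by strand, so its level is uncertain. Gm29488, in intron 4 of Srgap2 (a GTPase-activating protein), had TPM values of 26.8, 33.9 and 23.4 and 835 to 1310 counts. Replicate 2 was its highest library by TPM and by count.

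Next by mean TPM, Gm48194 had 29.6, 27.6 and 17.9 TPM and Gm44258, in intron 19 of the receptor phosphatase gene Ptpro, had 30.3, 22.1 and 17.6. Gm44258 had 28 to 45 counts on 301 bases, so its TPM is less precise than that of longer members. Gm47664, in intron 16 of Elmo1 (which activates Rac with Dock proteins during engulfment), had 16.8, 26.9 and 24.3 TPM, with replicate 1 the lowest. Gm43328 in Rap1a, Gm17024 in Ifrd1 and CT010502.2 in Pdpk1 had mean TPM values of 21.6 ± 3.0, 21.2 ± 3.6 and 20.4 ± 0.98 (SD, n = 3). From Gm48194 to CT010502.2 the ranges over libraries overlapped, so the order of these members is not resolved. By counts the order differed, since length enters TPM. Gm43813, in intron 1 of Mlxip (MondoA, a glucose-sensing transcription factor), led with 1027, 1525 and 1130 counts at 14.5 ± 2.0 TPM. In the first transcript table all of these counts went to its TEC transcript (a type that still needs experimental evidence) of 5378 bases, and its sense_intronic transcript was listed at 0. Gm43813, B230216N24Rik and Gm15503 are annotated as genes of type processed_transcript, and they are the 3 members that also have transcripts of another type. In all 3 of them most counts of every library went to transcripts of the other type. Of the 10 members with the highest mean TPM, 3 were among the 10 with the highest mean count.

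At the threshold the lowest library decided membership. Gm19409 in Mapre3 and Gm42531 in Brca2 had a lowest TPM of 1.00 in any library, and Gm42463 in Tdrkh had 1.07. Just below, Gm37328 in Rabgap1l had a lowest TPM of 0.98, Gm11948 in Limk2 0.93 and Gm49512 in Tnrc6b 0.91.

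Hosts of the members were active genes. The host reached 1 TPM in all 3 libraries for 144 of the 147 members and for 75 of the 187 other sense-intronic genes. It reached 10 TPM in all libraries for 106 and 33. Of all annotated genes 24.4% were at 1 TPM or more in all 3 libraries, and of protein-coding genes 45.9%. The other sense-intronic genes are those that failed the rule, so their contrast with members was partly set by the selection. The median over genes of the host's mean TPM was 21.8 for members and 0.31 for the others. Since a member's reads and its host's introns cannot be told apart, the levels of the pair are not independent. Over the 147 members, Spearman's rho between the mean TPM of member and host was 0.32, and over all 332 sense-intronic genes with a host it was 0.66. Both are descriptions across genes of the same libraries.

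A member usually stood well below its host. On the log2(TPM + 1) scale, which understates differences of low genes, the median difference of member minus host was -2.01, -1.62 and -1.75 in replicates 1, 2 and 3, or -1.80 ± 0.20 (SD, n = 3). The median ratio of mean TPM was 24.7% of the host. Replicate 1 had the widest gap. The same medians over 940 other non-coding genes and pseudogenes at 1 TPM or more inside a protein-coding gene on the same strand were -2.02, -1.61 and -1.71, which differ from those of the members by less than the spread between libraries. In the second transcript table the mean of these medians was -1.81 ± 0.22 for members and -2.04 ± 0.19 (SD, n = 3) for the other nested genes. There the median of the members was higher in every library, at -2.05, -1.65 and -1.72 against -2.25, -1.89 and -1.97. The difference was highest in replicate 2 for 95 members (64.6%), against 58.7% of the other nested genes. In the second transcript table it was highest there for 68 members (46.3%), against 52.0%. The widest gap was that of Gm47587 in 2010111I01Rik. Gm47587 had 4.39, 2.32 and 1.78 TPM against a host mean of 355 ± 68 (SD, n = 3), and 78.0% of its 31-base words also occur in other genes. Gm47140 in Zfp445, Gm44549 in Vps35l, Gm48127 in Gramd1b and Gm43112 in Cdk14 followed, at 2.69% to 3.58% of their hosts.

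Above their host in every library were 8 members (5.44%), against 6.81% of the 940 other nested genes. Gm12238 was among them with the caveat above. Gm48194 lay in Gm49354, which was listed at 0 in all libraries, but the same stretch is also inside Tut7, a terminal uridylyltransferase gene with 138, 109 and 91.6 TPM, so Gm48194 was above the gene chosen as host and below Tut7. Gm43328 had 19.0, 24.8 and 20.8 TPM against 15.0, 14.2 and 12.4 of Rap1a, which encodes a small GTPase of the Ras family, and the ranges did not overlap. In the second transcript table Gm43328 was instead below Rap1a in every library, at 18.6, 24.3 and 24.6 TPM against 55.7, 53.9 and 53.0. AC154492.2 had 9.56, 11.0 and 9.87 TPM against a mean of 7.31 for Rhoq, another small GTPase gene, but in the second table it was below Rhoq in every library, at 8.02, 9.27 and 9.79 against 18.0, 11.0 and 13.4. Gm28229 had 6.73, 9.99 and 8.13 TPM against a mean of 2.25 ± 1.3 for Gm20537. Gm26930, Gm42868 and AC157784.1 were also above their hosts Gm4258, Gm12474 and Ccbe1, with mean TPM values of 8.88, 2.40 and 1.81. The mean TPM of these 3 hosts was 7.54, 0.46 and 0.50. The second table placed 12 members above their host in every library, and 3 of them, Gm48194, Gm28229 and Gm42868, were among the 8 of the gene table.

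**Figure D2:**
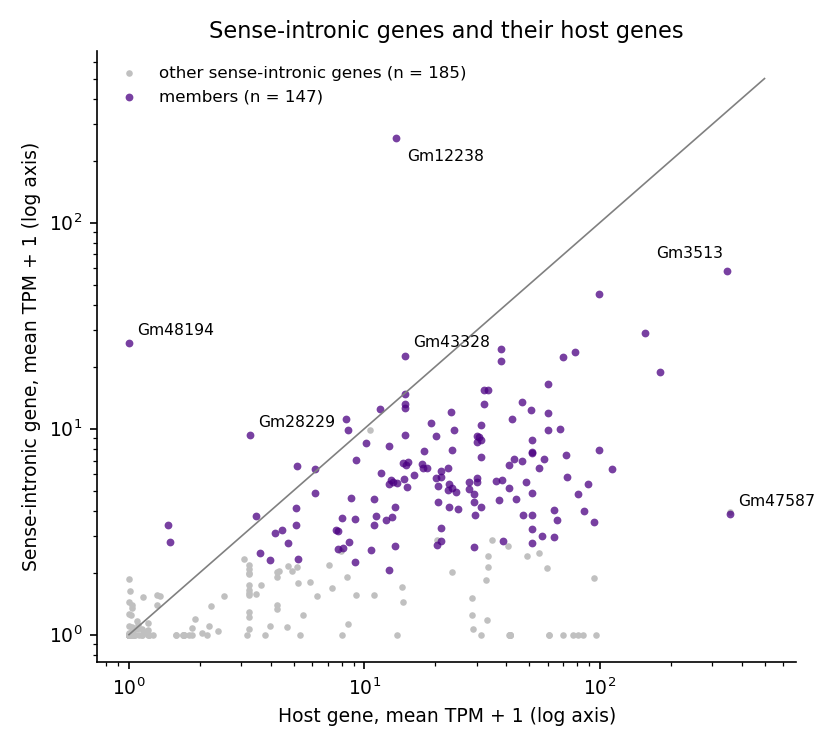
Mean TPM + 1 of each sense-intronic gene against mean TPM + 1 of its host, both on log axes, with members in purple, other sense-intronic genes in grey and the line of equal levels. Most members lie below the line, at a median of 24.7% of the host, and 8 lie above it in every library.

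No member lay in a gene of a list of 100 genes of macrophage identity, TLR4 signalling, NF-kB, immediate early and interferon response. Of these 100 genes, 1 hosts any annotated sense-intronic gene. The hosts of members were genes of many roles, such as the histone deacetylase gene Hdac9 and the ubiquitin ligase gene Trim33.

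Hosts with several members allowed comparison within 1 transcription unit. Rap1a held 4 members. In the order of the minus strand, Gm43331, Gm43330 and Gm43329 lie in intron 1 and Gm43328 in intron 6 of 7. Gm43331 had 12.5, 13.3 and 9.12 TPM, Gm43330 16.3, 13.1 and 11.7, and Gm43329 12.6, 13.4 and 10.5. In the gene table these 3 members overlapped each other and lay at 84.0%, 99.0% and 87.8% of the mean of Rap1a. In the second transcript table they were far below it, with mean TPM values of 24.5, 11.0 and 12.7 against 54.2. Gm43328, nearest the 3′ end of the host, was higher than the other 3 in every library of the gene table. In the second transcript table Gm43331 was above it in replicates 1 and 2, at 22.6 and 30.3 TPM against 18.6 and 24.3.

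Cdk14, which encodes a cyclin-dependent kinase, held 7 members, the most of any host. Gm43728 and Gm43727 lie in intron 2, Gm10484 and Gm43577 in intron 5, and Gm43111, Gm43113 and Gm43112 in intron 14, the last. Gm43111 had 4.81, 12.1 and 6.43 TPM in replicates 1, 2 and 3, and Gm43112 had 1.11, 3.20 and 1.09. Within the last intron the mean TPM thus ranged from 1.80 for Gm43112 to 7.78 for Gm43111. Cdk14 itself had 49.2, 60.9 and 40.9 TPM, so all 7 members were far below it, at 3.58% to 15.5% of its mean.

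The 7 Cdk14 members also shared a pattern over the libraries. After scaling of the counts to CPM with edgeR's TMM method, all 7 were highest in replicate 2. Gm43112 had 2.96, 9.59 and 3.99 scaled CPM in replicates 1, 2 and 3, Gm43111 had 7.53, 21.2 and 13.8, and Gm43728 had 12.5, 22.3 and 16.6. Their median log2 ratio of replicate 2 to the mean of the other 2 libraries was 0.92. Cdk14 showed the same order with a smaller difference, at 103, 165 and 128 scaled CPM and a log2 ratio of 0.51 for replicate 2. With TMM, 19 of the 123 hosts (15.4%) were highest in replicate 2, against 32.7% of genes with a mean of 10 or more counts. By total count 51 hosts (41.5%) were highest there, against 50.9% of those genes, so the share depends on the scaling. Of the 7 Cdk14 members, 6 were also highest in replicate 2 by the second transcript table.

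**Figure D3:**
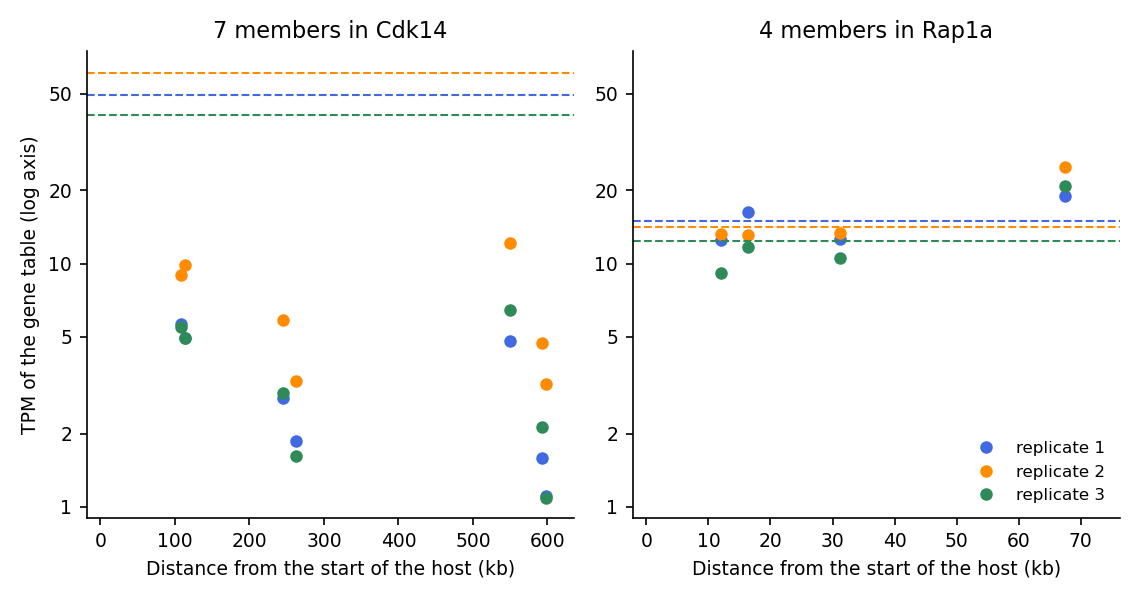
TPM of the gene table (log axis) for the 7 members in Cdk14 and the 4 in Rap1a, placed by their distance from the start of the host in kb, with 1 point per library and dashed lines for the host's TPM in the same library. All Cdk14 members lie below the host with replicate 2 on top, and the Rap1a members lie near the host's lines except Gm43328, which is above them.

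In the other hosts with several members, levels of the gene table within a host differed to varying degrees. Man1a2, a Golgi mannosidase gene, held Gm43463, Gm43462, Gm42869 and Gm43466 at mean TPM values of 2.28, 4.81, 5.25 and 1.85. The pair in intron 6, Gm42869 and Gm43462, overlapped in their ranges, and both were above the other pair in every library. Snx27, a sorting nexin gene of endosomal recycling, held Gm43768 in intron 1 at 15.4 ± 3.3 TPM and Gm43774 and Gm43773 in intron 2 at 10.9 ± 1.5 and 8.90 ± 0.93 (SD, n = 3). Lrig2 held 4930509H03Rik and A530041M06Rik in intron 1 at 8.24 and 7.62 mean TPM and Gm43696, the longest member with 6071 bases, in intron 11 at 4.77. Capza1, an actin-capping protein gene, held Gm42659 and Gm42658 at 14.5 and 12.2. Zmiz1, with Gm47920 and Gm47921 both in intron 1, had the widest gap of a pair, at 44.0 and 6.90 mean TPM. The pairs in Hipk1 (Gm43149 and Gm43387), Hs2st1 (Gm43560 and Gm43707), Ptpn22 (Gm15472 and Gm43065), Wars2 (Gm43024 and Gm42717) and Gramd1b (Gm48129 and Gm48127) had mean TPM values between 1.96 and 7.24. For Gm47920 and Gm47921 the order reversed in the second transcript table, at 32.5, 33.3 and 43.2 TPM against 98.6, 113 and 105. Gm47921 had only 12 to 14 counts in the gene table. By mean TPM the order also reversed for Gm42659 and Gm42658, at 13.1 and 18.3, and for Gm43774 and Gm43773, at 10.0 and 13.3. Gm43768 stayed the highest Snx27 member in the second table, at 14.7.

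Replicate 2 was the highest library in scaled CPM for 68 of the 147 members (46.3%), against 32.7% of the 15871 genes with a mean of 10 or more counts. Replicate 1 was highest for 31 members (21.1%), against 36.8%, and replicate 3 for 48 (32.7%), against 30.5%. The median log2 ratio of a library to the other 2 was -0.27, 0.15 and 0.06 over members for replicates 1, 2 and 3, and 0.06, -0.10 and 0.04 over their 123 hosts. With scaling to total count the host medians were 0.04, 0.04 and -0.09, so the library in which hosts stood lowest depends on the scaling. Over all genes these medians lay between -0.02 and 0. Without the 7 Cdk14 members, 61 of 140 members (43.6%) were highest in replicate 2. Spearman's rho between the log2 ratios of member and host was 0.21, 0.19 and 0.05 for replicates 1, 2 and 3. It covers the 129 members with 10 or more counts in every library.

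The same pattern was present in other non-coding genes. Among genes with a mean of 10 or more counts, replicate 2 was highest for 57.6% of TEC genes (loci that the annotation marks as still needing experimental evidence) and for 47.4% of lincRNA genes. It was highest for 27.8% of protein-coding genes. Unspliced members had replicate 2 highest in 49 of 84 cases (58.3%) and members with a spliced transcript in 19 of 63 (30.2%). In the second transcript table these shares were 48.8% and 44.4%, so the gap between both kinds of member was smaller there. Scaling also mattered for the count. By total count alone, replicate 2 was highest for 103 members (70.1%), against 50.9% of all genes. The starting amount was lowest in replicate 2, and its part in the pattern was not tested.

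**Figure D4:**
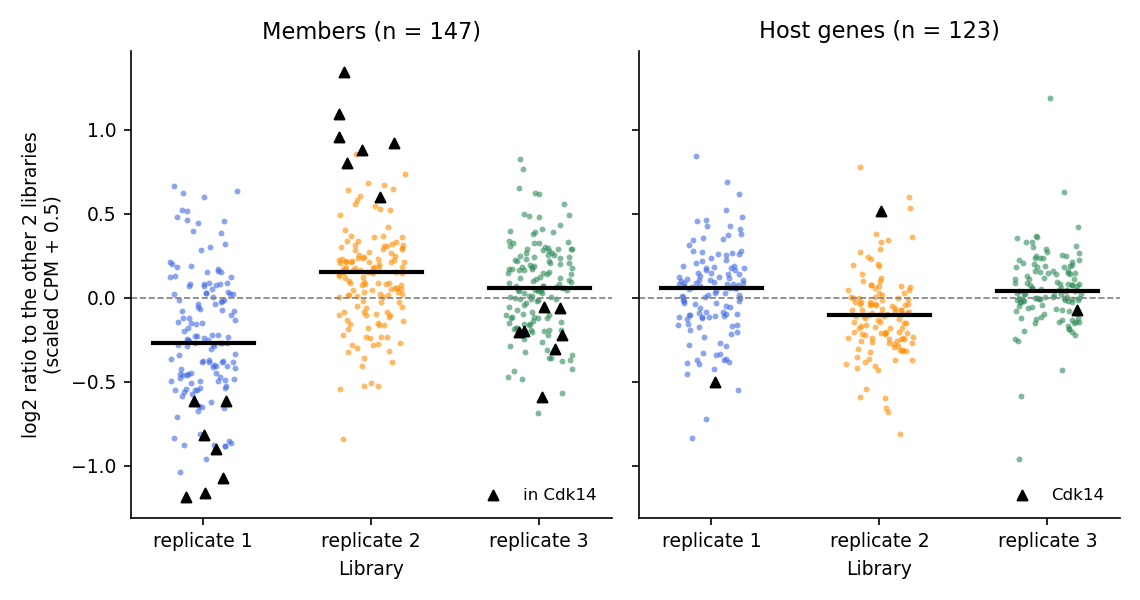
Log2 ratio of scaled CPM (+ 0.5) in each library to the mean of the other 2, for the 147 members (left) and their 123 hosts (right), with 1 point per gene, bars at the medians and triangles for Cdk14 and its members. The member medians are -0.27, 0.15 and 0.06 and the host medians 0.06, -0.10 and 0.04 for replicates 1, 2 and 3.

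Individual members differed widely in their spread over the libraries. Among members with a mean of 10 or more counts, Gm43138 in Golga3 varied least, at 4.89, 4.77 and 4.80 scaled CPM, a coefficient of variation of 1.35%. AC166575.1, Gm44982, Gm20705 and Gm17193 followed, at 2.59% to 3.82%. Gm43138 had 76, 82 and 65 counts and Gm44982 only 18, 21 and 16, so counting error alone exceeds their spread. Being the lowest of many members, these values do not measure how well the libraries matched. The TPM of Gm43138 was less even, at 10.7, 9.76 and 7.85 in the gene table and 9.47, 12.6 and 12.4 in the second. Gm20705 lies in the protein-coding model Gm20696 and also in Foxp1, a forkhead transcription factor gene. The most variable were Gm43112 in Cdk14 at 64.7%, Gm44836 in Cebpg at 62.0%, Gm43113 in Cdk14 at 56.5%, Gm48591 in Rassf3 at 56.1% and Gm44549 in Vps35l at 48.4%. All 5 were lowest in replicate 1, and 4 of them were highest in replicate 2. Gm44836, Gm48591 and Gm44549 had only 4 to 32 counts per library.

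The second transcript table, which the authors made directly from the reads, gave a different picture of level. It listed 146 of the 147 members at 1 TPM or more in all 3 libraries, against 98.9% of all genes that reached 1 TPM in the gene table. Taken alone, it would choose 215 sense-intronic genes (64.4%), against 36.5% of all annotated genes. The 146 shared genes are 99.3% of the members and 67.9% of the second table's choice, and 69 genes reached 1 TPM in the second table alone. Both tables come from the same reads, so this is no independent check.

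For members in both tables the second was higher on balance. The median log2 difference, second minus gene table on the log2(TPM + 1) scale, was 0.33 ± 0.20 (SD over libraries, n = 3). It was 0.17 once TPM was rescaled over genes longer than 200 bases. Without that rescaling the median of the per-gene means was 0.34 for members and 0.30 for all genes at 1 TPM or more. The second table was higher in all 3 libraries for 85 members (57.8%), against 59.1% of all such genes, and lower in all 3 for 22. These shares are close to the background.

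The differences were larger in short members. Members of 500 bases or shorter had a median log2 difference of 1.10 (n = 23), and all genes of that length one of 0.45. Members of 501 to 1000 bases had 0.69 (n = 37), against 0.37. Members of 1001 to 2000 bases had 0.08 (n = 33) and longer members 0.10 (n = 54), against 0.31 and 0.30. The counts moved in the same order. The second table gave more counts in all 3 libraries to 146 members, against 98.7% of all genes, with a median ratio of 2.14 for members and 1.70 for all genes. By length the median count ratio of members was 4.29, 3.09, 1.73 and 1.68 from the shortest class to the longest. All genes of those classes had 2.99, 2.20, 1.91 and 1.64. For 15 members the effective length in the gene table was under 50% of the transcript length. The part of the effective length in the difference was not tested.

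**Figure D5:**
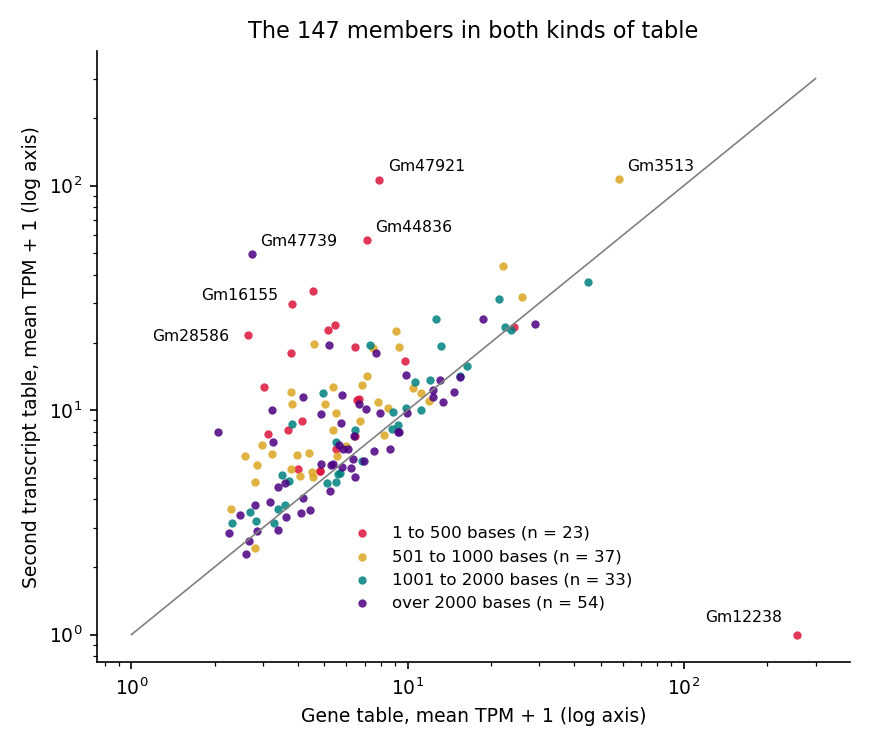
Mean TPM + 1 of each member in the second transcript table against the gene table, both on log axes, coloured by length of the longest transcript, with the line of equal levels. Members of 500 bases or shorter lie mostly above the line, with a median log2 difference of 1.10, and Gm12238 lies at the bottom right with 0 in the second table.

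Apart from Gm12238, the largest difference belonged to Gm47739, in intron 8 of Mcm9, a DNA helicase gene. It had 2.28, 1.61 and 1.32 TPM in the gene table and 55.2, 46.9 and 43.7 in the second, with 81.1, 70.8 and 56.0 counts against 3233, 3370 and 2698. The ranges of both tables lay far apart. Of its 31-base words, 98.5% also occur in other genes. Its transcript is 2705 bases long, a length shared by 2 other members, AC113485.1 in Sgms1 and Gm47357 in Hdac9, and by Gm47404 in Chrm3, which is no member. Position by position these 4 transcripts were 98.4% to 98.7% identical, so they are near-identical copies and their levels are uncertain in either table. AC113485.1 had a mean TPM of 4.17 in the gene table and 18.4 in the second, Gm47357 3.84 and 8.63, and Gm47404 0.24 and 6.33.

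The first 90 bases of the 4 copies are shown, 5′ to 3′, because the copies differ at few letters. Capitals mark letters that differ from Gm47739. All 4 genes lie on the minus strand, at chr10:53570625-53575756 for Gm47739, chr19:32204182-32209273 for AC113485.1, chr12:34623907-34628638 for Gm47357 and chr13:10175784-10180807 for Gm47404.
Gm47739: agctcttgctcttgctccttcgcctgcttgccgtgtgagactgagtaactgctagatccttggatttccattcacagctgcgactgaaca
AC113485.1: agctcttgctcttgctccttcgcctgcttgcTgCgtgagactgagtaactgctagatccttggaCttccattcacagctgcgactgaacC
Gm47357: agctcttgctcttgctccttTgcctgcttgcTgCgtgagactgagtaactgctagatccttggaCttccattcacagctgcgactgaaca
Gm47404: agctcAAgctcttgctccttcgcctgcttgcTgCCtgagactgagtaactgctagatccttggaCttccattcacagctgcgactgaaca
AC113485.1 and Gm47357 differed from Gm47739 at 4 of the 90 positions and Gm47404 at 6.

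The other large differences were in short spliced or single-exon members whose sequence was mostly their own. Gm47921, 328 bases in intron 1 of Zmiz1, had 7.66, 6.94 and 6.10 TPM in the gene table and 98.6, 113 and 105 in the second. It had 14, 13 and 12 counts against 334, 499 and 421, and none of its words occur in another gene. Gm16155 in Tmcc3, of 338 bases, had 2.83 ± 2.0 TPM against 28.6 ± 3.6 and shares no word either. Gm28586 in Nck1, an adaptor protein gene, had 1.63 ± 0.59 against 20.6 ± 1.8 (SD, n = 3). Gm44836 in Cebpg had 2.07, 10.6 and 5.75 TPM against 45.7, 64.7 and 57.7, and 31.05% of its words occur in other genes, above all in Cebpg itself. In each of these 4 members the ranges of both tables did not overlap.

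Lower values in the second table were smaller in size. Apart from Gm12238, the largest belonged to Peg13, an imprinted non-coding RNA in intron 16 of Trappc9, with 5.82, 5.48 and 5.08 TPM in the gene table and 3.92, 3.98 and 4.19 in the second. The log2 difference was -0.36, although its counts were higher in the second table, at 415 to 516 against 373 to 440. A530041M06Rik in Lrig2, Gm42664 in Ptbp2 and Hm629797 in Phkb followed, with differences of -0.35, -0.32 and -0.31. All 4 are unspliced and 2288 to 4725 bases long, and none shares a word with another gene in the same direction. In the reverse direction A530041M06Rik shares 0.044% of its words and Hm629797 0.127%.

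Sharing of most of the sequence was rare among the members, but sharing of some was common. The shares count words that occur in transcripts of other genes in the same direction, and not their reverse complements. A shared 31-base word was found in 82 of the 147 members (55.8%), against 44.4% of the other sense-intronic genes. Longer transcripts hold more words, and the median length was 1434 bases for members and 795 for the others, so these shares are not matched for length. The median share of 31-base words that occur in other genes was 0.23%, and 7 members were at 50% or more. These were Gm12238, Gm47739, AC113485.1, Gm47357, Gm47587, Gm45311 in Sergef and Gm29055 in Dis3l2. Own exons overlapped exons of another gene on the same strand in 5 members and on the opposite strand in 13, whose levels are uncertain for that reason.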

How the data were processed

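Per the file headers and the deposited readme files, the authors derived a gene table (estimated count, TPM and standard deviation of the count) and a first transcript table from transcriptome alignments to mm10 with GENCODE M21. The second transcript table (estimated count and TPM) was deposited as made from the reads with an M21 index, without those alignments. Programs, versions and use of strand: not given in the sources used here. Rows naming no annotated gene (0.351% to 1.16% of counts) were left out.

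Genes, hosts and transcript sequences came from M21, which matched all 55536 identifiers. A host was the same-strand gene of another type that contains the member, protein coding first, then the shortest. Gene values of the second table are sums over transcripts. Counts were rounded and scaled with edgeR 4.0.16 (TMM), or DESeq2 1.42.0 size factors as an alternative, in R 4.3.3. Ratios used CPM + 0.5. The ratio script was tested on simulated data. With 1 group no test was run.

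The members, lists and alternatives were chosen with earlier results of these data known. Members were named as the 10 highest by mean TPM, the 5 extremes of each comparison, the 3 on each side of the threshold, and all in hosts with 2 or more members, of which 1 host and its members are not reported here. Others named, such as the 10 highest by count and non-members, were chosen after their values were seen.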

Additional observations from a re-analysis of the deposited data

How the results depend on the processing

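The number of members was 147 and lay between 113 and 215 with a TPM threshold of 0.5 or 2, a minimum of 10 counts, the second transcript table or TPM rescaled without short RNAs. It was 52 at a threshold of 5 TPM. Leaving out each library in turn gave 148 to 154. The median level of 4.72 TPM was 7.51 in the second table and 6.03 as CPM of counts, which is not normalised for length, and 4.41 to 5.06 with a library left out. The median log2 difference of member minus host was -2.00 with a pseudocount of 0.1 and -2.996 on CPM, and -1.69 to -1.88 with a library left out. With the containing gene of highest TPM as host, an alternative chosen after seeing the data, it was -1.81, and 7 members stood above it. The members above their host numbered 7 to 12 under all settings run, but 3 of the 12 in the second table were among the 8 of the gene table. The median log2 difference between the tables fell from 0.33 to 0.17 with TPM rescaled over genes longer than 200 bases. Members at 5 TPM or more in the second table numbered 83, against 146 at 1 TPM. The median log2 ratio of replicate 3 was 0.06 and changed sign to -0.065 with total count scaling. It was -0.039 against replicate 2 alone and 0.26 against replicate 1 alone. For replicate 2 it was 0.039 to 0.22 and for replicate 1 -0.26 to -0.22 with a library left out. The count of members highest in replicate 2 was 103 with total count scaling, against 68. With total count scaling the median log2 ratio of replicate 2 rose from 0.15 to 0.28 over members. Over all genes with a mean of 10 or more counts it rose from -0.02 to 0.12. Under the other settings run, including DESeq2 size factors, counts stayed within 1.5 times and values moved by less than the spread between libraries. For the library ratios that spread was the SD of the 3 median ratios themselves, which is a loose limit. The cause of these changes was not tested beyond what the settings themselves alter. No comparison between groups was possible because there is 1 group. Members and hosts, and the 2 kinds of table, were compared within each library. Depth limits the 18 members with under 10 counts in some library.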
